A study of Oryctolagus cuniculus with 39 samples.

Results

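The stromal vascular fraction (SVF) of subscapular brown adipose tissue was compared between New Zealand White rabbits aged 6 weeks and 3 weeks, with 3 bulk RNA-seq libraries at each age. These 6 libraries were all those labelled with this depot, this fraction and these ages, out of 39 samples in the series. Of 20589 genes in the expression table, 11654 were tested: those with an FPKM (fragments of a gene relative to its length and to the fragments mapped in the library) of at least 1 in at least 3 of the 6 libraries. The series follows brown fat of the rabbit as it regresses after birth (ages: day 1, then 3, 6 and 12 weeks). It samples subscapular SVF, interscapular SVF and whole interscapular fat. The interscapular SVF at 3 and 6 weeks, with 3 libraries per age, serves here as the depot to compare with. No treatment, genotype or sex is given in the labels, nor whether a library came from 1 animal or from pooled animals, so the p-values measure only the spread between these libraries.

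Brown fat cells burn fuel to make heat through UCP1, a carrier in the inner mitochondrial membrane that lets protons bypass ATP synthase. The SVF is what remains when tissue is digested and the buoyant fat cells are removed: fat cell progenitors and fibroblasts, vessel cells and immune cells. Interferons act on such cells through receptors that switch on antiviral genes of the IFIT, MX and OAS families and the chemokine CXCL10.

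The libraries had the stromal genes their label calls for. All 19 genes of a progenitor and fibroblast list were tested, and their summed level was 7173 to 11831 at 3 weeks and 8309 to 11580.1 at 6 weeks. Fat cell transcripts were present too, with FABP4, a fatty acid carrier of fat cells, at 1415 to 3595 and 1524 to 3131. All levels are scaled FPKM, that is FPKM divided by 1 factor per library, and changes are differences of log2(scaled FPKM + 1), which understates the change of low genes. In bulk RNA, fewer cells of a type and less RNA per cell cannot be told apart.

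The 3 weeks libraries stood apart in ways other than single genes. ADORA1 and LOC100009266 together made up 80.4%, 64.2% and 63.9% of the summed FPKM at 3 weeks, against 1.1%, 19.2% and 0.734% at 6 weeks, and were left out of the tests. Between 12416 and 13888 genes were above 0 at 3 weeks and between 16279 and 17692 at 6 weeks. RN18S is the symbol of the 18S ribosomal RNA, but the table describes this identifier as part of a chicken protein, CDH1-D, so what it measures is uncertain. It had scaled levels of 864, 537 and 783 at 3 weeks and 129, 245 and 99.3 at 6 weeks, and passed the test as a fall (log2 change -2.28, SE 0.35, adjusted p = 0.0487). The median SD of a gene between replicates was 0.39 (log2) at 3 weeks and 0.17 at 6 weeks. The part of these differences in the results below was not tested.

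**Figure D1:**
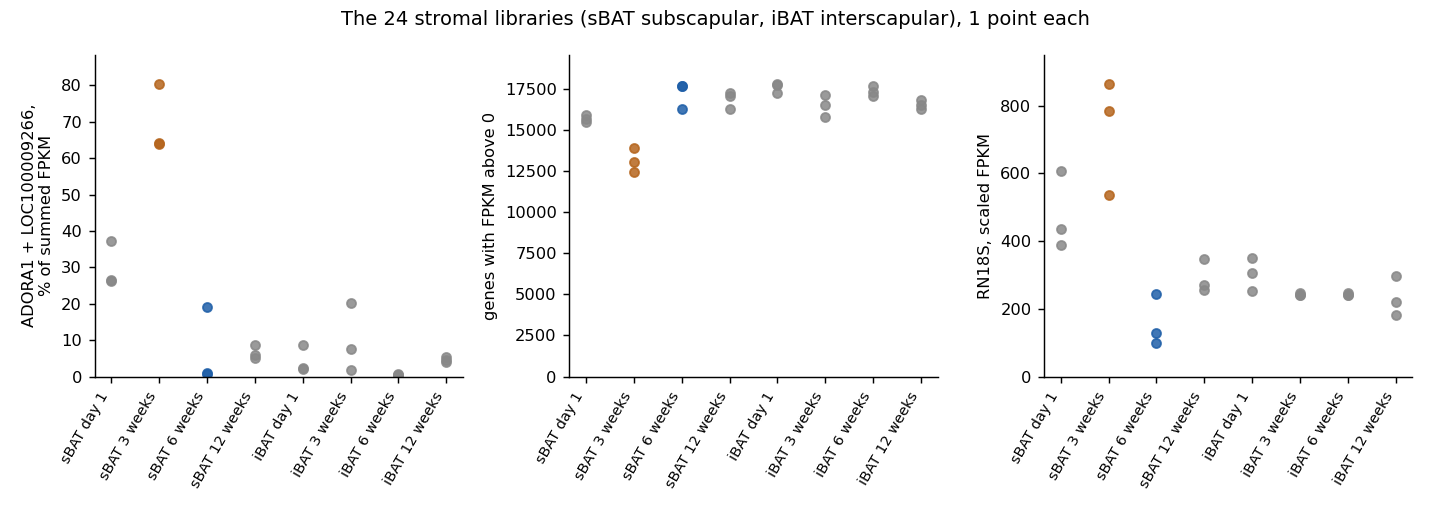
Each point is 1 of the 24 SVF libraries, by depot and age: the percentage of the summed FPKM taken by ADORA1 and LOC100009266 (left), how many genes were above 0 (middle) and the scaled FPKM of RN18S (right). The 3 subscapular libraries of 3 weeks (brown) have the largest shares, 63.9% to 80.4%, and the fewest genes above 0, and those of 6 weeks (blue) have RN18S at 99.3 to 245.

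With limma and Benjamini-Hochberg adjustment, 73 of the 11654 genes passed an adjusted p under 0.05 (0.626%). Of these, 37 rose (0.317%) and 36 fell (0.309%) from 3 to 6 weeks, with absolute log2 changes from 1.06 to 6.95. All 73 had no overlap between the 3 values of each age. Among called genes with a symbol, IFGGA1 and IRGM had the largest rises and UCP1 the largest fall. The median change of all genes tested was 0.07 with the scaling used, and 1.25 on the deposited FPKM, where 9931 genes were called higher and 47 lower. With a common total per library after leaving out the 2 dominant genes, the split was 51 higher and 26 lower. Fitted on all 24 SVF libraries, the same comparison called 1161 genes higher (9.96%) and 942 lower (8.08%), among them 72 of the 73. In the fit of 6 libraries the count of calls moved with single libraries: without the first library of 6 weeks 2 genes were called, without the second 10 and without the third 3. Without the first library of 3 weeks 30 were called and without the second 17. Without the third library of 3 weeks 513 were called, 70 of the 73 among them. At an unadjusted p under 0.05, 2057 genes passed.

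The plot of the leading genes by library shows the 12 largest rises and 12 largest falls among called genes with a symbol and a mean level of 10 or more at 1 age.

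**Figure D2:**
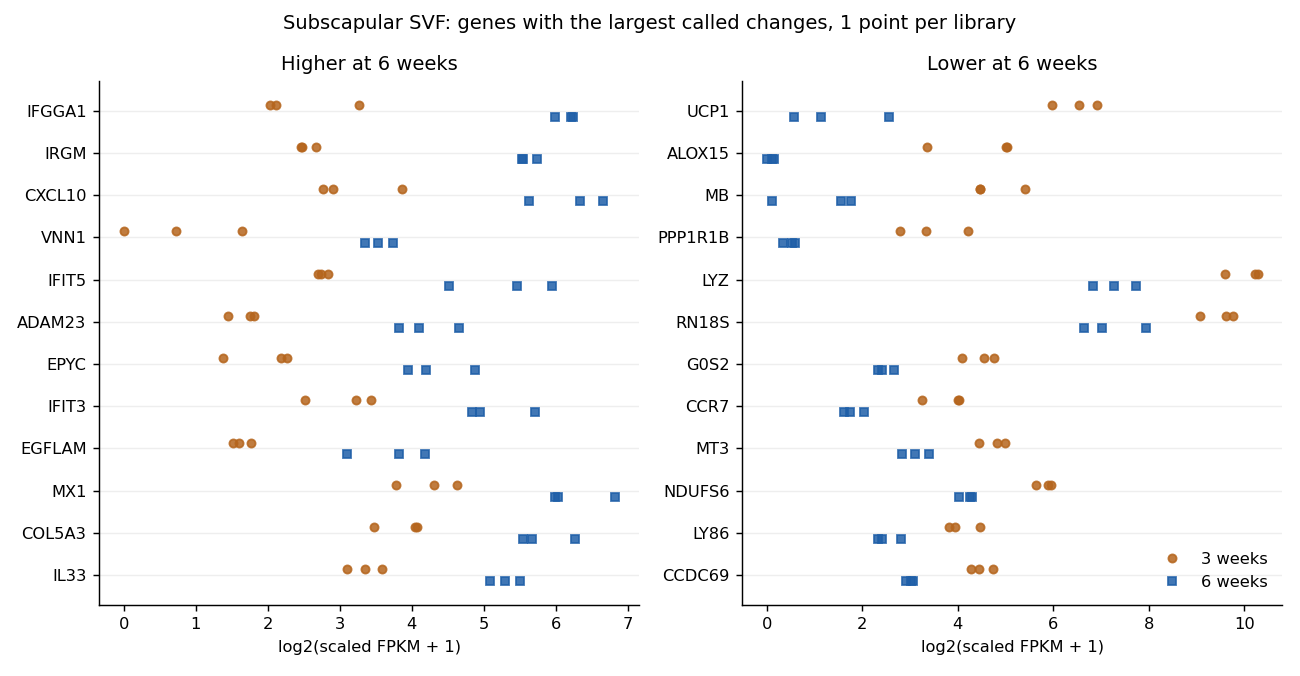
Each point is 1 subscapular SVF library, with 3 weeks as brown circles and 6 weeks as blue squares, on the log2(scaled FPKM + 1) scale; genes are ordered by the size of the change. No gene overlaps between the ages, from IFGGA1 (log2 change 3.68) to IL33 (1.95) on the left and from UCP1 (-5.05) to CCDC69 (-1.49) on the right.

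Interferon-inducible GTPases, which act against microbes inside cells, were the named genes with the largest rises. IRGM had scaled levels of 5.37, 4.57 and 4.49 at 3 weeks and 45.4, 45.5 and 52.6 at 6 weeks. Its replicates were tight at both ages and the groups lay far apart, with a log2 change of 3.07 (SE 0.17, adjusted p = 0.000512). IFGGA1, described in the table as interferon-inducible GTPase 1, had levels of 3.07, 3.33 and 8.59 at 3 weeks and 74.6, 62.3 and 73.2 at 6 weeks. It rose by 3.68 (SE 0.33, adjusted p = 0.0116), with the third library of 3 weeks above the other two. Without each library in turn, IRGM passed the test in 6 of 6 fits and IFGGA1 in 3.

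CXCL10, a chemokine that draws T cells and is induced by interferon gamma, had 13.5, 5.78 and 6.48 at 3 weeks and reached 79.4, 99.6 and 48.5 at 6 weeks. The lowest library of 6 weeks was above the highest of 3 weeks, and the log2 change was 3.03 (SE 0.37, adjusted p = 0.0289). IL33, an alarm cytokine made by stromal cells and known to act on innate lymphoid cells, had 7.61, 11 and 9.22 at 3 weeks and 44.2, 33.1 and 38.1 at 6 weeks. It rose by 1.95 (SE 0.20, adjusted p = 0.0164), and no value at one age came near those at the other. These were the 2 genes that rose among 15 tested of a cytokine and chemokine list of 20, against 0.317% of all genes tested. That list had a median change of 0.03. Of the others in it, IL1B, an inflammatory cytokine of myeloid cells, had 255, 562 and 501 at 3 weeks and 160.4, 177 and 153 at 6 weeks, with all values lower at 6 weeks, and did not pass the test (log2 change -1.34, adjusted p = 0.0953). IL1B was chosen after its values were seen.

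The interferon response list held 21 symbols, of which 18 had a row, and OASL had 2 identifiers, so 19 identifiers were tested. Of these, 5 rose, against 0.317% of all genes tested, and none fell, against 0.309%. All 19 changes were above 0, with a median of 1.78 against 0.07 over all genes tested. In 16 of the 19, every value at 6 weeks was above every value at 3 weeks, which held for 14.5% of all genes tested. The summed level of the list was 99.6, 92.2 and 109 at 3 weeks and 509, 345 and 306 at 6 weeks, so the groups did not overlap. On the deposited FPKM the median of the list was 2.70 beside 1.25 for all genes, and under the other 3 scalings it was between 1.67 and 1.93.

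Of the 5 that rose, 4 are described here. IFIT5, which binds foreign RNA, had 5.47, 5.68 and 6.13 at 3 weeks and 60.9, 43.2 and 21.8 at 6 weeks (log2 change 2.55, SE 0.35, adjusted p = 0.0375). MX1, a GTPase that traps viral particles, had 12.8, 18.8 and 23.8 and then 112, 64.3 and 62.2 (2.03, SE 0.30, adjusted p = 0.0413). In both, the first library of 6 weeks was the highest of the 6. DDX58, the sensor of viral RNA also called RIG-I, had 14, 13.1 and 20.3 and then 59.6, 49.3 and 71.4 (1.87, SE 0.22, adjusted p = 0.0289). IFIT3, a partner of other IFIT proteins, had a log2 change of 2.11 (SE 0.32, adjusted p = 0.0473). Outside the list, SAMD9L, an antiviral factor named after its values were seen, also rose (1.58, adjusted p = 0.0413).

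Other members had changes of similar size and did not pass the test, among them IRF7, a transcription factor that amplifies the response, at 1.92 (SE 0.38, adjusted p = 0.0745), and ISG15, a ubiquitin-like protein, at 1.32 (adjusted p = 0.0909). With all 24 SVF libraries in the fit, 17 of the 19 were called higher, against 9.96% of all genes. Leaving out 1 library ended the call of MX1, of IFIT3 and of DDX58 in 5 of 6 fits and that of IFIT5 in 4 of 6. The log2 change of these 4 was 1.74 or more in every alternative run.

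**Figure D3:**
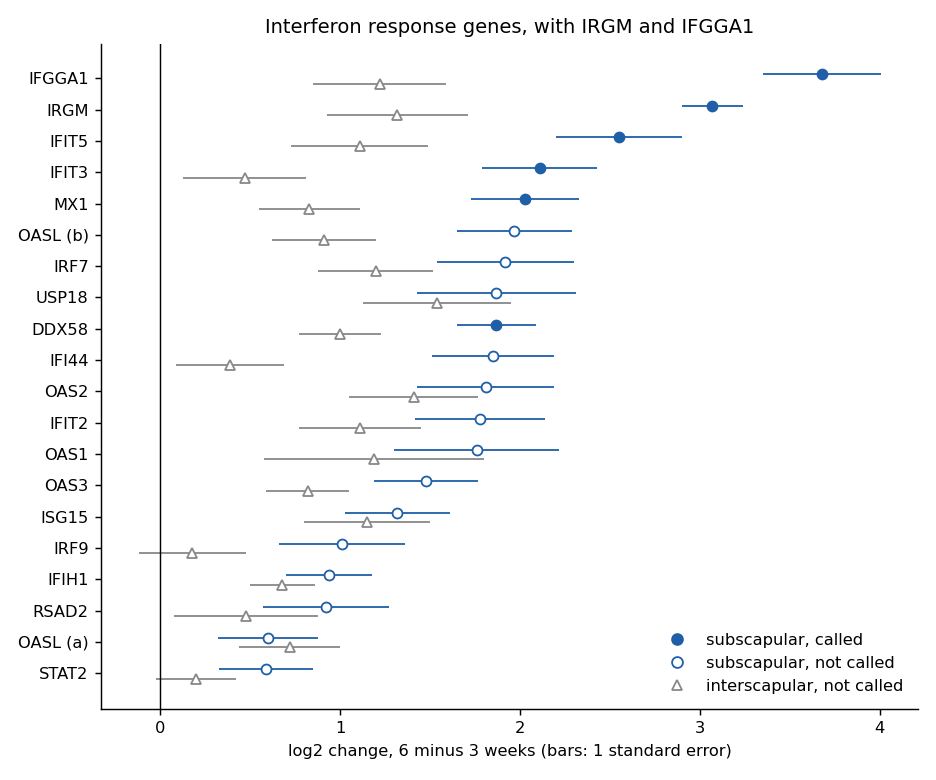
The log2 change from 3 to 6 weeks, with 1 standard error, of 18 of the 19 interferon list identifiers and of IRGM and IFGGA1, in the subscapular SVF (blue circles, filled where called) and the interscapular SVF (grey triangles); OASL has 2 identifiers, a and b. All subscapular changes plotted lie above 0, from 0.59 for STAT2 to 3.68 for IFGGA1, and no interscapular change passed its test.

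In the interscapular SVF the same list had a median change of 0.83, and 0 of its 19 members were called in a fit where 141 of 12266 genes were (1.15%), 73 higher (0.595%) and 68 lower (0.554%). That fit held 12 libraries, of both depots at 3 and 6 weeks, while the subscapular calls above came from 6 libraries. The counts of calls in the 2 depots are therefore not alike. Its summed level there was 129, 139.6 and 155 at 3 weeks and 222, 260.2 and 336 at 6 weeks, again without overlap. A test of the difference between the depots called none of the list, and it gave 1.75 for IRGM (SE 0.56, adjusted p = 0.294) and 2.46 for IFGGA1 (SE 0.52, adjusted p = 0.159). A difference between the depots was therefore not shown for these genes.

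Over the 4 ages, every one of the 19 interferon list identifiers had its highest subscapular mean at 6 weeks, against 24.8% of all genes tested. The interscapular mean was highest at 6 weeks for 14 of the 19, against 19.5% of all genes. All 19 subscapular changes from 3 to 6 weeks were above 0. Both shares also take in genes with changes below 0, so they are not matched backgrounds. IRGM had subscapular means of 2.36 at day 1, 4.81 at 3 weeks, 47.8 at 6 weeks and 14.4 at 12 weeks. CXCL10 went from 10.7 and 8.6 at the earlier ages to 75.8 and then to 15.8 at 12 weeks. Day 1 and 12 weeks entered no test of their own.

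**Figure D4:**
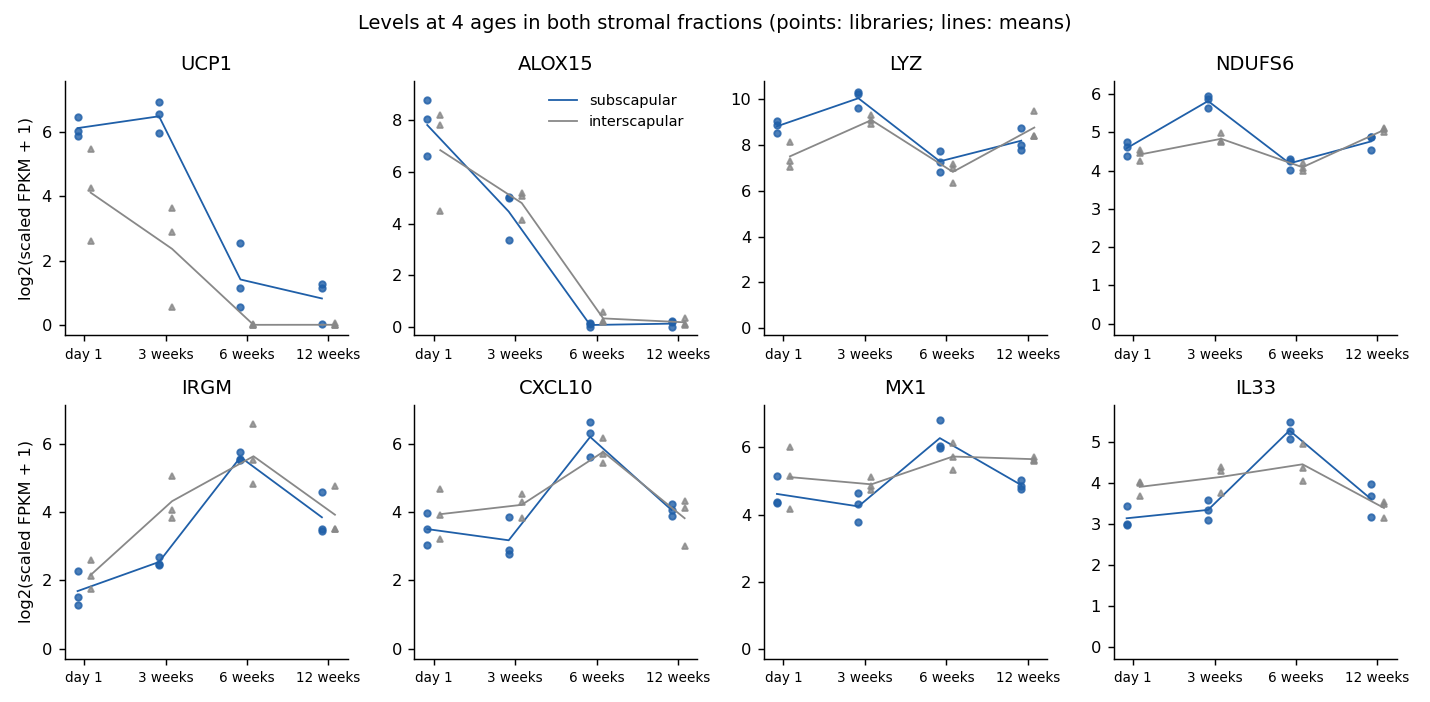
Levels of 8 genes as log2(scaled FPKM + 1) at 4 ages in the subscapular SVF (blue circles) and the interscapular SVF (grey triangles), with 1 point per library and lines through the means of the plotted values. UCP1 has a mean scaled FPKM of 91.3 at 3 weeks and 2.19 at 6 weeks in the subscapular SVF, while IRGM, CXCL10, MX1 and IL33 have their highest subscapular values at 6 weeks.

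Immune cell markers gave no matching set of calls. The macrophage and monocyte list had 0 of 15 tested genes called, against 0.626% of all genes tested. It had a median change of 0.22 and a summed level of 527 to 716 at 3 weeks and 614 to 794 at 6 weeks. Its changes ran from -2.18 to 1.64. In it 4 genes had all values higher at 6 weeks and 4 all lower, against 14.5% and 11.2% of all genes tested. CD68, a lysosomal protein of macrophages, was at 39.8, 34.9 and 32 and then at 33.9, 29.4 and 33.8. CSF1R, another gene of that list, had 50.8, 49.8 and 51.6 and then 94.5, 58.9 and 75.2, with no overlap. It did not pass the test (log2 change 0.55, adjusted p = 0.215). None of 11 T and NK cell genes was called, and CD3E, a subunit of the T cell receptor complex, lay between 1.83 and 9.41 in all 6 libraries. The part of immune cells in the rise of the interferon genes was not tested.

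Other named genes that rose were COL5A3, EPYC and EGFLAM. COL5A3, a fibrillar collagen chain, had 15.5, 15.8 and 10.1 at 3 weeks and 45.8, 49.9 and 76 at 6 weeks, with no overlap (log2 change 1.96, SE 0.26, adjusted p = 0.0328). EPYC, a small leucine-rich proteoglycan, had 3.79, 1.61 and 3.53 and then 17.4, 14.4 and 28.5 (2.40, SE 0.34, adjusted p = 0.0405). EGFLAM, an extracellular matrix protein also called pikachurin, rose by 2.07 (SE 0.30, adjusted p = 0.0413). The third library of 6 weeks was the highest for COL5A3 and EPYC and the second for EGFLAM. The next 3 were named after their values were seen. ABI3BP, a matrix protein, had 46.5, 68.6 and 64.3 and then 189.6, 150.1 and 185 (1.54, SE 0.20, adjusted p = 0.0318). FGF10, a growth factor known to drive fat cell progenitors, had 7.31, 8.03 and 8.57 and then 28.2, 21.9 and 31.8 (1.64, SE 0.19, adjusted p = 0.0281). SLC40A1, the iron exporter ferroportin, had a change of 1.62 (SE 0.21, adjusted p = 0.0318).

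In an extracellular matrix list, 0 of 25 tested genes were called, against 0.626% of all genes tested, and the median was 0.08. COL1A1, the chain of type I collagen, had 3566, 5485 and 3973 at 3 weeks and 4234, 3859 and 6501 at 6 weeks, overlapping widely (log2 change 0.15, SE 0.31). COL3A1, of type III collagen, had a change of 0.23 (SE 0.30). COL5A3 and ABI3BP are not in that list.

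ADAM23, a membrane protein of cell adhesion, and VNN1, an enzyme that recycles vitamin B5, rose in both depots. ADAM23 had 2.49, 1.72 and 2.38 at 3 weeks and 16.2, 13.2 and 24.2 at 6 weeks (log2 change 2.53, SE 0.26, adjusted p = 0.0164). VNN1 had 0, 2.12 and 0.65 and then 9.16, 10.5 and 12.4 (2.75, SE 0.41, adjusted p = 0.0413), so 1 library of 3 weeks listed it at 0. In the interscapular SVF their changes were 2.60 (adjusted p = 0.00166) and 2.17 (adjusted p = 0.0284). COL5A3 was called there too, at 2.64 (adjusted p = 0.0032).

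UCP1 had the largest fall among called genes with a symbol. LOC100358370, described as a ribosomal protein L15-like gene and named after its values were seen, fell further, from 197, 184 and 113 to 0, 0 and 1.2 (log2 change -6.95, SE 0.37, adjusted p = 0.000512). The scaled level of UCP1 was 120.3, 61.7 and 91.9 at 3 weeks and 1.21, 4.89 and 0.48 at 6 weeks. The lowest library of 3 weeks was far above the highest of 6 weeks, and the log2 change was -5.05 (SE 0.50, adjusted p = 0.0164). In the subscapular SVF its mean was 69.1 at day 1 and 0.905 at 12 weeks. The interscapular SVF held less of it at 3 weeks, with a mean of 6.12, and its change of -2.35 did not pass the test (adjusted p = 0.117). The difference between the depots did not pass either (-2.70, adjusted p = 0.339). Without the second library of 3 weeks, the first of 6 weeks or the third of 6 weeks, the adjusted p of the subscapular fall was 0.054, 0.0723 and 0.0542.

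Of 17 symbols in the thermogenic list, 8 were tested and UCP1 alone was called lower, against 0.309% of all genes tested. The median change was -1.03, and 6 of the 8 had every value at 6 weeks below every value at 3 weeks, which held for 11.2% of all genes tested. COX7A1, a respiratory chain subunit of brown fat and muscle, had 44.3, 32.4 and 56.6 and then 4.21, 14 and 4.52, without overlap (log2 change -2.56, SE 0.43, adjusted p = 0.0535). CIDEA, a lipid droplet protein of brown fat, had 50.1, 54.3 and 65.3 and then 19.8, 43.1 and 19.3 (-1.11, SE 0.31, adjusted p = 0.144). In the interscapular SVF CIDEA fell by 3.17 (adjusted p = 0.00433), and the difference between the depots did not pass its test (2.06, adjusted p = 0.212). On the deposited FPKM the median of the list was 0.29, above 0 but below the 1.25 of all genes. COX7A1, and LOC100354254 below, were chosen after their values were seen.

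LOC100354254, described in the table as cytochrome c oxidase subunit 8B, a form of that subunit known from brown fat and muscle, fell as well. It had 79.8, 59 and 38.6 at 3 weeks and 2.99, 5.67 and 3.79 at 6 weeks, with a log2 change of -3.52 (SE 0.31, adjusted p = 0.0112). It also fell in the interscapular SVF (-1.87, adjusted p = 0.0293).

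General fat cell genes were mixed and gave no calls. Of 15 adipocyte genes tested, none was called, against 0.626% of all genes tested. Changes were above 0 for 5 of them, and the median was -0.21, with a range from -2.15 to 1.71. With all 24 libraries in the fit, 1 was called higher and 2 lower, against 9.96% and 8.08% of all genes. The summed level was 4746, 1925 and 4158 at 3 weeks and 2456, 4580.2 and 3585 at 6 weeks. ADIPOQ, the fat cell hormone adiponectin, had 166, 104 and 102 and then 223, 598 and 471, all higher at 6 weeks, and did not pass the test (log2 change 1.71, SE 0.38, adjusted p = 0.0945). PPARG, the master regulator of fat cells, overlapped between the ages (0.34, SE 0.30). CIDEC, a lipid droplet protein, had 64, 20.6 and 38.4 and then 9.86, 21.3 and 12.5, which overlapped (-1.36, SE 0.43, adjusted p = 0.178).

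Nuclear genes of mitochondrial proteins were called in both directions. RHOT1, described below, rose (log2 change 1.33, adjusted p = 0.0287). LOC100353320, LOC100344965 and LOC100342544, described as mitochondrial proteins and named after their values were seen, were called higher too. Each was listed at 0 in all 3 libraries of 3 weeks. Several other genes of this kind fell. NDUFS6, a subunit of complex I, had 60.7, 48.8 and 57.9 at 3 weeks and 15.3, 18.6 and 18.1 at 6 weeks (log2 change -1.63, SE 0.17, adjusted p = 0.0164). It fell by 0.75 in the interscapular SVF (adjusted p = 0.0321). Others that fell, named after their values were seen, were NDUFC2 of complex I (-1.25, adjusted p = 0.0413), ROMO1, an inner membrane protein (-1.36, adjusted p = 0.0413), and MPC1, a subunit of the pyruvate carrier (-1.35, adjusted p = 0.0413). MPC1 had 72.8, 68.3 and 61.8 and then 21.2, 32.5 and 25.1.

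None of NDUFS6, NDUFC2, ROMO1 and MPC1 stands in the oxidative phosphorylation list of 28 symbols, of which 23 were tested and 0 were called. Its median change was -0.79 against 0.07 over all genes, and all 23 changes were below 0. In 17 of them no value at 6 weeks reached those at 3 weeks, which held for 11.2% of all genes tested. COX4I1, a subunit of complex IV, had 297, 287 and 274 and then 117, 147 and 163, and just missed the threshold (log2 change -1.01, SE 0.18, adjusted p = 0.0619). With all 24 SVF libraries in the fit, 15 of the 23 were called lower, against 8.08% of all genes. The highest subscapular mean over the 4 ages was at 3 weeks for 19 of the 23, against 24.1% of all genes. That share also takes in genes with changes above 0, so it is not a matched background for these 23. The interscapular median was -0.53.

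The ribosomal protein and fatty acid oxidation lists also had medians below 0 and no calls. Of 37 ribosomal protein genes tested, 0 were called and the median was -0.55. Of these, 26 had all values lower at 6 weeks, against 11.2% of all genes tested. With all 24 libraries in the fit 24 were called lower, against 8.08% of all genes. Of 14 fatty acid oxidation genes, 0 were called, the median was -0.72 and 7 did not overlap downwards, against the same 11.2% of all genes. On the deposited FPKM the medians of the oxidative phosphorylation, ribosomal protein and fatty acid oxidation lists turned to 0.72, 0.97 and 0.73, each below the 1.25 of all genes. These lists moved in the same direction as RN18S, while the number of genes above 0 rose. The part of those in the shift was not tested.

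**Figure D5:**
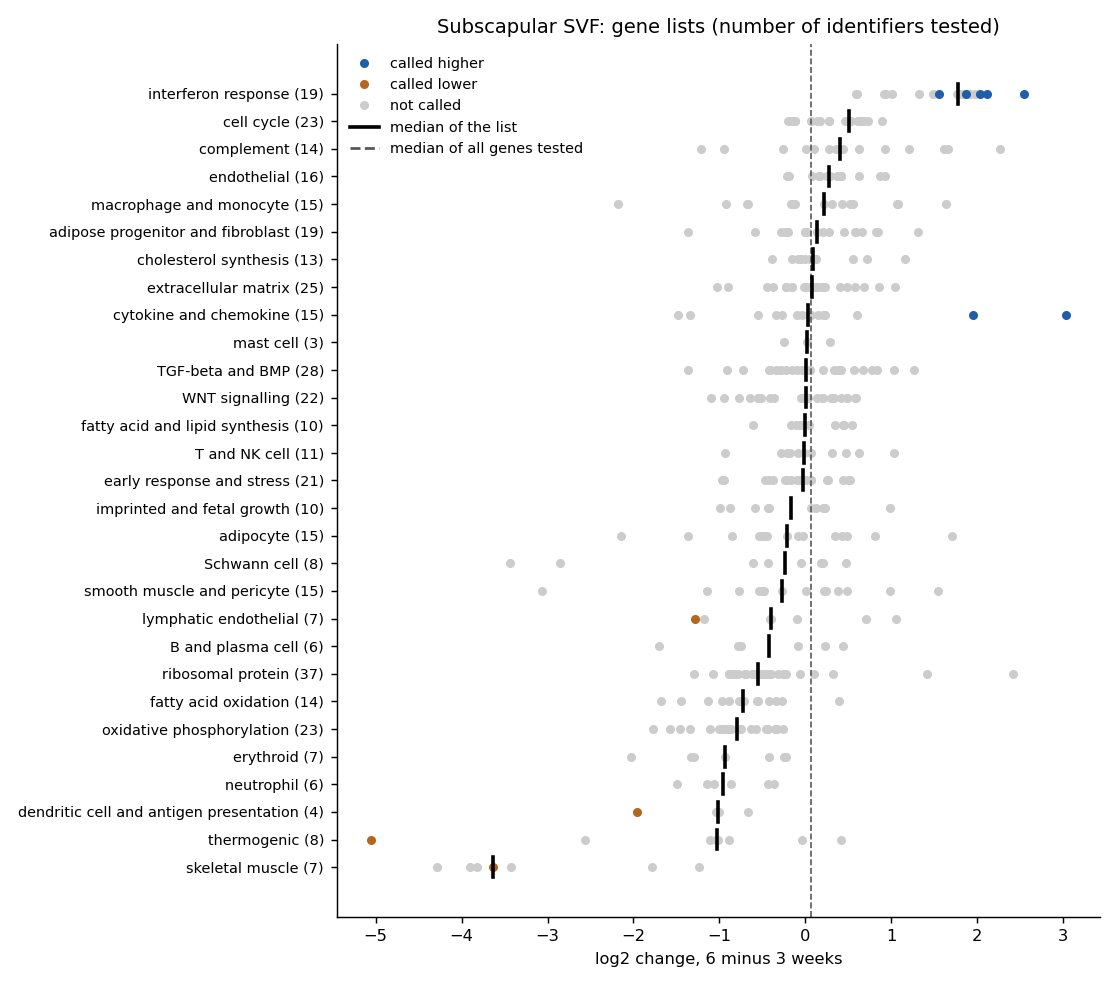
Each point is a tested member of a gene list at its log2 change from 3 to 6 weeks in the subscapular SVF (blue called higher, brown called lower, grey not called); thick lines are list medians and the dashed line is the median of all genes tested, 0.07. The interferon list has the highest median, 1.78, with 5 called genes, and the skeletal muscle list the lowest, -3.63; on the deposited FPKM all list medians other than that of skeletal muscle lie above 0.

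LYZ and ALOX15 were among the named falls, while the macrophage and monocyte list had no calls. LYZ, the antibacterial enzyme lysozyme of macrophages and neutrophils, had 771, 1248 and 1192 at 3 weeks and 213, 153 and 113 at 6 weeks. The groups were clearly apart, with a log2 change of -2.75 (SE 0.29, adjusted p = 0.0188), and it also fell in the interscapular SVF (-2.26, adjusted p = 0.00545). LOC100340903, also described as lysozyme and named for that, had 57.1, 115 and 131 and then 17.9, 18.6 and 13.6 (-2.46, adjusted p = 0.0318). How fragments of similar copies were assigned is not given in the sources used here, so the levels of the 2 lysozyme genes are uncertain. Neither is a member of the macrophage and monocyte list.

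ALOX15, a lipoxygenase that makes lipid mediators in macrophages and eosinophils, had 31.1, 31.6 and 9.3 at 3 weeks and 0.0813, 0 and 0.114 at 6 weeks. It fell by 4.38 (SE 0.45, adjusted p = 0.0164) and was listed at 0 in 1 library of 6 weeks. ALOX15 passed the FPKM filter only through the libraries of 3 weeks, so leaving out 1 of those took it out of the test. It was called in 0 of the fits that left out 1 library. Its subscapular mean was 264 at day 1 and 0.107 at 12 weeks, and it fell by 4.45 in the interscapular SVF (adjusted p = 0.0013). LY86, which pairs with a toll-like receptor relative on B cells and myeloid cells, had 14.4, 21 and 13.1 and then 6.05, 4.34 and 3.99 (log2 change -1.56, SE 0.25).

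CCR7, the receptor that guides dendritic and T cells to lymph nodes, had 15.2, 15.1 and 8.47 at 3 weeks and 2.08, 3.11 and 2.34 at 6 weeks. It fell by 1.96 (SE 0.27, adjusted p = 0.0405), and its interscapular change was -0.37 (adjusted p = 0.528). Of 13 symbols in the dendritic cell and antigen presentation list, only 4 were tested. CCR7 was the one called lower, against 0.309% of all genes tested, and the median was -1.02. All 4 had every value lower at 6 weeks, which held for 11.2% of all genes tested. On the deposited FPKM that median was 0.22. MMRN1, a protein of lymphatic vessels and platelets, had 33.5, 34.9 and 33.1 and then 15.6, 14.9 and 10.2 (-1.28, SE 0.20, adjusted p = 0.0478). It was the 1 called gene of 7 lymphatic genes, against 0.309% of all genes called lower. PROX1, the transcription factor that defines lymphatic cells, overlapped between the ages (-0.10, SE 0.24) and was chosen for that role. The change of MMRN1 was 0.17 on the deposited FPKM.

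MB, the oxygen store myoglobin of muscle, had 21.1, 41.3 and 21.2 at 3 weeks and 0.0813, 2.4 and 1.95 at 6 weeks, a fall of 3.63 (SE 0.48, adjusted p = 0.0322). It was the called gene of 7 tested in the skeletal muscle list, against 0.309% of all genes called lower. The list had a median of -3.63. In that list 6 had all values lower at 6 weeks, against 11.2% of all genes tested. Other muscle genes were very uneven at 3 weeks. MYL1, a myosin light chain of fast muscle, had 36.1, 769 and 36.4 and then 1.07, 9.64 and 16 (-3.82, SE 1.27, adjusted p = 0.191). The summed level of the list was 221, 3178 and 213 at 3 weeks and 5.69, 53.1 and 74.9 at 6 weeks, so the second library of 3 weeks held most of it. MYOD1, which commits cells to muscle, was at 1.2 or less in all 6 libraries. PHKG1, the muscle form of a glycogen enzyme subunit, fell too (-1.95, adjusted p = 0.0413) and was named after its values were seen. It passed the FPKM filter only through the libraries of 3 weeks. The part of muscle tissue in these libraries was not tested.

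Schwann cell and blood lists were also unevenly spread at 3 weeks. The summed level of the Schwann cell list was 1019, 496 and 125 at 3 weeks and 63.7, 99.1 and 95.8 at 6 weeks, with 0 of 8 genes called. The summed erythroid list was at 1508, 1717 and 421 and then at 336, 684 and 323, with 0 of 7 genes called. Over all genes tested, 0.626% were called.

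The other named falls were G0S2, PPP1R1B, MT3 and CCDC69. G0S2, an inhibitor of fat breakdown, had 25.9, 16 and 22.5 at 3 weeks and 4, 5.32 and 4.29 at 6 weeks (log2 change -2.00, SE 0.23, adjusted p = 0.026), and also fell in the interscapular SVF (-1.85, adjusted p = 0.0468). PPP1R1B, a phosphatase inhibitor also called DARPP-32, had 17.6, 5.89 and 9.1 and then 0.503, 0.265 and 0.448 (-2.96, SE 0.37, adjusted p = 0.0318). Like ALOX15, it passed the filter only through the libraries of 3 weeks and was called in 0 of the fits that left out 1 library. MT3, a metal-binding metallothionein, and CCDC69, a coiled-coil protein, had changes of -1.65 (adjusted p = 0.0381) and -1.49 (adjusted p = 0.0318). None of these genes overlapped between the ages.

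The progenitor, endothelial and cell cycle lists gave no calls, where 0.626% of all genes tested were called. Their medians were 0.14, 0.28 and 0.51, against 0.07 over all genes. Changes were above 0 for 12 of 19, 14 of 16 and 19 of 23 genes, and for 6510 of all 11654. All values were higher at 6 weeks for 4, 0 and 6 genes, against 14.5% of all genes tested. All were lower for 1, 0 and 0, against 11.2%. PDGFRA, the receptor that marks fat cell progenitors, had 25.7, 48.8 and 32.1 at 3 weeks and 54.2, 35.3 and 54.8 at 6 weeks, overlapping (log2 change 0.45, SE 0.28, adjusted p = 0.449). PI16 and DPP4, of early progenitors, had changes of 0.00 (SE 0.28) and -0.20 (SE 0.25). PECAM1, of vessel lining cells, had 0.27 (SE 0.34), and 0 of 16 endothelial genes were called. MKI67, a protein of dividing cells, had 2.49, 1.55 and 2.11 and then 3.26, 7.34 and 2.57, all higher at 6 weeks without passing the test (0.73, adjusted p = 0.335), and 0 of 23 cell cycle genes were called. Of 24 marker genes fixed by name and tested, UCP1 alone was called.

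Some of the calls rest on genes listed at 0. Among genes tested, 48 were at 0 in all 3 libraries of 3 weeks and above 0 in all 3 of 6 weeks, 0 the other way round, and 1 in the interscapular SVF. Of the 37 genes that rose, 10 were of this kind. Such genes passed the FPKM filter only through the libraries of 6 weeks. RPS27L, a ribosomal protein relative, had 0, 0 and 0 and then 6.63, 9.47 and 5.69, and FOLR1, a folate receptor, had 0, 0 and 0 and then 2.54, 2 and 2.87; both were chosen after their values were seen. With no counts, a 0 can be a failed estimate, and no fold is given for these genes.

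Gene models with the same described protein moved in opposite directions in 2 cases, chosen after their values were seen. TMOD3, the actin-capping protein tropomodulin 3, fell from 26.8, 24.2 and 29.2 to 10.7, 11.1 and 10.9 (log2 change -1.22, adjusted p = 0.0318). LOC100359303, also described as tropomodulin 3, had 0.0647, 0.0383 and 0 and then 27.4, 33.7 and 31.1 (adjusted p = 0.000209). Like LOC100353320 below, it passed the FPKM filter only through the libraries of 6 weeks, and no fold is given for it. COX7B, a subunit of complex IV, had 95, 74.9 and 141 and then 28.5, 41.6 and 19.7 (-1.77, adjusted p = 0.0632), while LOC100353320, described as the same subunit, had 0, 0 and 0 and then 22.7, 32.5 and 43.4 (adjusted p = 0.000512). These 4 levels are uncertain, since the counting could split fragments between the models.

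Against the interscapular SVF, most called genes had a change of the same sign. Of the 73 genes, 20 were also called in the interscapular SVF in the same direction. Of all 11654 genes tested here, 136 were called in the interscapular SVF in either direction. Of the 37 that rose, 30 had an interscapular change above 0, and of the 36 that fell, 33 had one below 0. These are 81.1% and 91.7%, beside 64.1% of all tested genes with a subscapular change above 0 and 64.8% of those with one below 0. The test of the difference between the depots called 9 of 12266 genes (0.0734%), 7 with a difference above 0 (subscapular change minus interscapular change) and 2 below 0. The sign does not say which depot changed more. That fit of 12 libraries called 1132 genes between the ages in the subscapular SVF (9.23%). On the deposited FPKM the test of the difference between the depots called 8954 genes above 0 and 9 below 0. The interscapular comparison then called 30 higher and 63 lower in place of 73 and 68.

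RHOT1, a GTPase that moves mitochondria along microtubules, rose in the subscapular SVF and also differed between the depots. So did RPS27L (adjusted p = 0.0382), LOC100353320 (adjusted p = 7.68e-06), LOC100344965 (adjusted p = 0.00997) and LOC100342544 (adjusted p = 0.031). Each of these was listed at 0 in all 3 subscapular libraries of 3 weeks. Their differences can thus rest on failed estimates and are not given. RHOT1 had 8.38, 7.54 and 7.78 at 3 weeks and 20.9, 21.1 and 21.9 at 6 weeks, with a log2 change of 1.33 (SE 0.16, adjusted p = 0.0287). In the interscapular SVF it had 15.8, 15.6 and 15.5 and then 20, 15.7 and 17.8, a change of 0.17 (adjusted p = 0.516). The difference was 1.15 (SE 0.17, adjusted p = 0.0397), and its call was lost in 9 of 12 fits that left out 1 library.

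PLAUR, the receptor of urokinase, had 19.1, 28.9 and 16.5 and then 13, 9.14 and 11.9 in the subscapular SVF. In the interscapular SVF it had 9, 10.1 and 6.91 and then 42.6, 29.1 and 40.2. The values moved in opposite directions, with a difference of -2.82 (SE 0.33, adjusted p = 0.00997). CARD19, a protein with a caspase recruitment domain, differed by -1.75 (SE 0.27, adjusted p = 0.0479). Its call was lost in 15 of 21 alternatives, among them 9 of 12 that left out 1 library, and the difference was -0.38 on the deposited FPKM, while PLAUR kept its call in all 21. CARD19 had 12.5, 18.1 and 13.9 and then 5.44, 4.78 and 6.8 in the subscapular SVF, and an interscapular change of 0.51 (adjusted p = 0.208).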

How the data were processed

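RNA-seq of 3 subscapular SVF libraries at 6 weeks and 3 at 3 weeks was used, with the other SVF libraries for scaling and for the depot comparison; 12 whole interscapular samples and 3 single-cell samples were not used here. The deposited table gives FPKM per gene, per the file headers. The submitters' processing notes name HISAT2 2.0.4, Bowtie2 2.2.5, DESeq2 and the build OryCun2.0, with no roles; the annotation is not given in the sources used here. The table holds no counts, so the depth of each library is unknown and no counting interval is given.

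FPKM was divided by median ratio factors over 24 SVF libraries, from 11054 genes above 0 in all of them, without ADORA1 and LOC100009266. After a pseudocount of 1 and log2, limma 3.58.1 (R 4.3.3) with a variance trend was fitted to the 6 libraries, over genes with an FPKM of 1 in 3 libraries; p-values were adjusted by Benjamini-Hochberg over all genes tested, with a threshold of 0.05. The difference between the depots was an interaction in 12 libraries. The script was tested on simulated data. Gene names were matched to the RefSeq gene table of mOryCun1.1 for 17693 of 20589 identifiers (85.9%), which replaced 653 placeholder symbols. The genes compared and 30 gene lists were chosen with earlier results of these data known. Genes were named by rule: among genes that passed the test, did not overlap, carried a symbol and had a mean of 10 or more at 1 age, the 12 largest rises and 12 largest falls; up to 4 called members of each list, or its 2 highest where none was called; 26 anchor genes; and up to 4 interaction genes each way. Some genes that the rule or a list holds are not reported here. Any other gene was chosen after its values were seen. Alternatives changed the pseudocount, filter, scaling, variance model and libraries, and added a block for the replicate number. Same-numbered libraries of the 2 ages had correlations of -0.06, -0.11 and -0.15, so the numbers were not treated as pairs.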

Additional observations from a re-analysis of the deposited data

Results flagged for a closer look

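For 5 named genes the change from 3 to 6 weeks differed between the subscapular and the interscapular SVF by an interaction test in limma (adjusted p from 0.00997 to 0.0479). HBZ, an embryonic globin, differed by 4.64 (SE 0.64, adjusted p = 0.031): its subscapular levels were 32.1, 63.9 and 41.8 and then 41, 75.5 and 31.9, and its interscapular levels 161, 96.4 and 155 and then 5.34, 9.28 and 1.81. RPS6, a ribosomal protein of the small subunit, differed by 3.29 (SE 0.42, adjusted p = 0.0213), with 45.3, 28.9 and 68.9 and then 117, 118 and 129 in the subscapular SVF and 147, 204 and 119.8 and then 55.8, 32.8 and 37.2 in the interscapular SVF. PLAUR differed by -2.82, RHOT1 by 1.15 and CARD19 by -1.75, with the levels given above. Of 21 alternatives, HBZ lost its call in 9, RPS6 in 8, RHOT1 in 12, CARD19 in 15 and PLAUR in 0.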

How the results depend on the processing

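With no counts the depth behind each level is unknown, and 3 libraries per age limit the precision. The cause of each shift below was not tested. The 73 subscapular calls became 42 with a pseudocount of 0.1, 392 with no filter, 9978 on the deposited FPKM, 2103 with all 24 libraries in the fit, and 3 without the first library of 3 weeks and the second of 6 weeks together, an alternative chosen after seeing the data. Leaving out 1 library gave 2 to 513. The 9 depot differences became 19 with that pseudocount, 8963 on the deposited FPKM, 72 with all 24 libraries and 4 with library weights, and leaving out 1 library gave 3 to 549. The 141 interscapular calls became 93 on the deposited FPKM, 538 with all 24 libraries and 2240 with library weights, and leaving out 1 library gave 12 to 390. The replicate number shows no pairing; with a replicate block 34 genes were called, 25 of the 73 among them, and 4 depot differences, and 0 libraries correlated best with their own number. On the deposited FPKM, where the median of all genes was 1.25, these log2 changes turned from 0 or below to above 0: FABP4 1.31, MMRN1 0.17, XBP1 1.41, TFRC 1.16, PCNA 1.35, SPARC 1.51, FADS2 1.39, FADS1 1.46, HADH 1.06, COX6A1 0.72, RPS24 1.26, RPLP1 1.00, FOS 1.51, SERPING1 1.25, ID3 1.48, PI16 1.51, ACTA2 0.98, CD34 1.23, DPP4 1.29, CD68 1.33 and PTPRC 1.08.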
